A study of Mus musculus with 6 samples.

Results

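The clustered histone genes were read in polyadenylated RNA of mouse kidney tubules after aristolochic acid I, a plant nephrotoxin that forms bulky adducts on DNA, or after its solvent. The members are the rows of the deposited table whose symbols begin with Hist1h to Hist4h, the older mouse names of the histone gene clusters. There were 70 such genes among 32544 rows. Of these, 35 reached 1 CPM (counts per 1000000 counted reads) in at least 3 of 6 libraries and are described one by one, and the other 35 stayed below that level. All mice were C57Bl/6, described as control mice with no engineered allele named, and received 1 injection, which the study's design text gives as 3 mg/kg for aristolochic acid I and for DMSO alike. Kidneys were taken 24 h later, and S2/S3 tubules were microdissected and pooled within a kidney. Aristolochic acid I (AA) and DMSO had 3 libraries each, numbered as replicates 1 to 3. The labels name no age, and they do not tie libraries to animals. P-values therefore measure only the spread between libraries, which may be technical.

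Histones are the proteins that package DNA. Pairs of the core histones H2A, H2B, H3 and H4 form the nucleosome, and the linker histone H1 binds the DNA between nucleosomes. Most clustered histone genes are switched on in S phase, have no introns, and make messenger RNA that ends in a short stem-loop and carries no poly(A) tail. The stem-loop-binding protein SLBP holds this end. Some of the same genes can also be read past the stem-loop to a later poly(A) signal, which gives tailed RNA in cells that do not divide. The TruSeq Stranded mRNA kit named in the labels selects tailed RNA, and RNA without a tail is outside its selection.

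The stem-loop was searched for downstream of the stop codon in GENCODE M21 transcripts (mm10) by its consensus, on the sense strand. It was found in 46 of the 70 members, 27 of the 35 described and 19 of the other 35. Only 54 members have an annotated 3′ UTR in which to look. Outside the members, 16 of 21099 genes with a 3′ UTR held it (0.0758%). The search fixes most positions, so likeness among the matches is set by it. These 5 loops, from H1, H4, H2B and H2A genes, were picked as examples of what was matched, with the stem-loop in capitals. They lie at chr13:23739507-23739532 (plus strand), chr13:23698084-23698109 (minus), chr13:23747198-23747223 (plus), chr3:96220413-96220438 (minus) and chr3:96262934-96262959 (minus).
Hist1h1c: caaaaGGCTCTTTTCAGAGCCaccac
Hist1h4c: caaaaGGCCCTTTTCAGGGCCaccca
Hist1h2bb: ccaaaGGCTCTTTTAAGAGCCaccca
Hist2h2ac: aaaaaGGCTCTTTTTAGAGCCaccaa
Hist2h4: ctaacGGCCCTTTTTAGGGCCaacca

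A poly(A) signal, AATAAA or ATTAAA, was searched for on the sense strand in the last 40 bases of each member's longest annotated transcript. It was found in 16 of 70 members, against 66.9% of protein-coding genes outside the members. Only 54 members have an annotated 3′ UTR, and a signal beyond an annotated end would be missed. The windows below show it, in capitals, at the annotated ends of 4 members with higher values in AA, which were chosen with those values known. They lie at chr3:96223707-96223732 (plus), chr13:23583674-23583699 (minus), chr3:96261699-96261724 (minus) and chr13:23740332-23740357 (plus).
Hist2h2be: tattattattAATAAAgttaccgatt
Hist1h2be: tgtgttccttATTAAAgcattcctga
Hist2h4: gtatacataaAATAAAatcttaaaaa
Hist1h1c: gtatgcttctAATAAAaagcgtttag

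The smallest library had 13304877 reads and the largest 31136251, and a single read was worth 0.0752 and 0.0321 CPM in them. Of 12 proximal tubule markers, all tested, 5 were lower in AA and 1 higher, with a median log2 fold change of -0.60. Lrp2 and Cubn, the endocytic receptors megalin and cubilin, fell by 1.44 and 1.11 on the log2 scale (limma adjusted p = 0.00199 and 0.000746). The summed level of the list, 34694 to 50275 CPM in DMSO and 30435 to 43442 CPM in AA, was mostly Kap (mean 23635 and 25582 CPM). Summed leukocyte markers (10 genes, none at 0 in every library) stood at 56.1 to 69.4 CPM in DMSO and 119 to 138 CPM in AA, and 5 of the 9 tested were higher and 0 lower. Of these 5, Cd79a reached 1 CPM only in AA libraries and so met the level rule through AA alone. Its call therefore lends no support. Collecting duct markers summed to 22.2 to 42.0 and 63.2 to 117 CPM, with 4 of 10 higher, and fibroblast and mural markers to 82.9 to 129 and 162 to 188 CPM, with 2 of 6 higher. Endothelial markers were higher for 2 of 7 and podocyte markers for 1 of 5, and among 6 markers of the thick limb and distal tubule 1 was lower. Erythroid markers were called for 0 of 4. Over all tested genes, 22.3% were higher and 8.66% lower at an adjusted p under 0.05, beside which these counts should be read. The part of these cell types in the histone values was not tested. In such bulk samples, fewer cells of a type and less RNA per cell cannot be told apart.

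Together the 70 members took 608, 768 and 686 CPM in DMSO replicates 1, 2 and 3, and 926, 878 and 928 CPM in AA replicates 1, 2 and 3. The AA libraries were all above the DMSO libraries, by 1.32 times on average (687 ± 79.7 against 910 ± 28.4 CPM, mean ± SD, n = 3 each). After trimmed-mean (TMM) scaling of the libraries the ratio was 1.13, and AA replicate 2 then lay below DMSO replicate 2. Unscaled and without DMSO replicate 2, the ratio was 1.41. The sum was carried by few genes. Hist1h1c, Hist1h2bc, Hist2h2aa2 and Hist1h1e held 62.4% to 72.2% of it in each library.

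**Figure D1:**
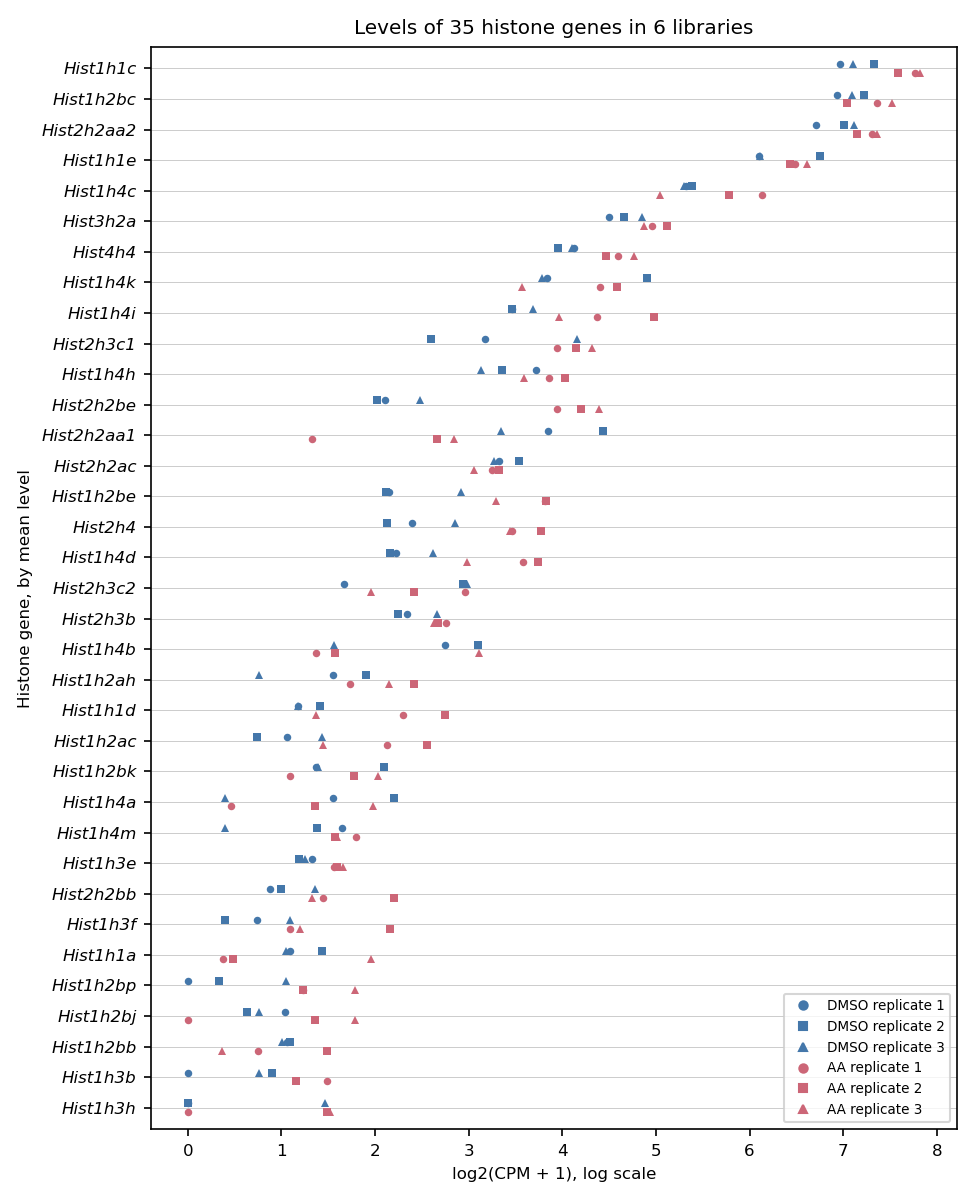
Level of each of the 35 histone genes in each library, as log2(CPM + 1) on the x axis, with genes ordered by mean level and symbols for DMSO (blue) and AA (red) replicates. Hist1h1c is at the top, and only 4 genes lie mostly above 6 on this scale.

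Each gene was tested with limma on log2(CPM + 1) over the 14311 genes at or above the level named above, with Benjamini-Hochberg adjustment over all of them and a call at an adjusted p under 0.05. Of the 35 histone genes, 9 were called higher in AA and 1 lower, and 25 were not called. Over all genes 22.3% were called higher and 8.66% lower, so the histone shares (25.7% and 2.86%) lie near or below this background. With equalised library medians, quantile normalization or TMM factors, 4 were higher and 1 lower in each fit, while 11.2%, 12.7% and 12.5% of all genes were higher and 16.9%, 14.5% and 15.7% lower. Groups that did not overlap were found for 13 histone genes with higher and 1 with lower values in AA, against 33.4% and 13.0% of all genes (46.4% in either direction). Among the 13, Hist1h3b reached 1 CPM only in AA libraries. Hist1h2bp and Hist1h2ac, both called higher, reached it in every AA library but not in every DMSO library. They too met the level rule only with their AA values. The median log2 fold change was 0.42 for the histone genes and 0.21 for all tested genes. DMSO replicates 1 and 2 differed from the other 4 libraries by more than 2 on the log2 scale for 40 tested genes, 38 of them with symbols of predicted genes, clones or pseudogenes and 0 of them histone members. Against DMSO replicate 3 alone the medians were 0.39 and 0.18. With a term for these library sets, 1 histone gene was higher and 0 lower, against 7.39% and 2.96% of all genes.

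Among linker histones, Hist1h1c rose and Hist1h1e did not pass. Hist1h1c, which encodes H1.2, had 124, 160 and 137 CPM in DMSO and 216, 191 and 226 CPM in AA. Every AA library was above every DMSO library. The log2 fold change was 0.59 (SE 0.14, limma adjusted p = 0.00973), and it was 0.33 with an adjusted p of 0.0989 once library medians were equalised. Hist1h1e had 67.9, 107 and 68.1 CPM in DMSO and 88.7, 85.5 and 97.2 CPM in AA, with DMSO replicate 2 above all others, and did not pass (log2 fold change 0.19, SE 0.18, adjusted p = 0.442). Hist1h1d had 1.25 to 1.67 CPM in DMSO and 1.58 to 5.73 CPM in AA and passed only when AA replicate 3 was left out (adjusted p = 0.0735 with it and 0.015 without it). Hist1h1a had under 3 CPM in every library.

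Among H2B genes, Hist2h2be rose with the largest fold change of the described members on the log2(CPM + 1) scale. Genes of very low level exceeded it on other scales: in voom Hist1h2bp (3.24), Hist1h3h (2.72) and Hist1h3b (2.58) against 2.30, and with a pseudocount of 0.1 Hist1h2bp (2.34 against 2.22). Its levels were 3.31, 3.05 and 4.57 CPM in DMSO and 14.4, 17.4 and 20.03 CPM in AA. The groups lay far apart, with the lowest AA library more than 3 times the highest DMSO library. The means differed by 4.74 times, and the log2 fold change was 1.98 (SE 0.23, adjusted p = 0.000189), which placed it 213th of 14311 tested genes. It was the 1 histone gene called under all 18 alternatives tried, with log2 fold changes from 1.36 to 2.30. Hist2h2be lies at chr3:96221119-96223738 on the plus strand and has a single exon. The stem-loop was not found in its annotated 3′ UTR of 2192 bases, even with 1 mismatch allowed.

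Hist1h2be, another H2B gene, had 3.43, 3.34 and 6.58 CPM in DMSO and 13.1, 13.1 and 8.76 CPM in AA. All AA values were above the DMSO values, though AA replicate 3 and DMSO replicate 3 were close. The log2 fold change was 1.25 (SE 0.28, adjusted p = 0.00753). Its annotated span, chr13:23583670-23621124 on the minus strand, overlaps Hist1h1e on the same strand, so reads of that overlap could be counted to either. Other annotated genes also overlap Hist1h2ac, Hist2h2aa1, Hist2h2bb, Hist2h3c1 and Hist3h2a on the same strand. Hist1h2ah, Hist1h4b, Hist2h2aa2, Hist2h2ac and Hist2h3b overlap genes on the other strand only. The strand setting of the counting is not given. Hist1h2bp rose from 0.00, 0.257 and 1.07 CPM to 1.35, 1.35 and 2.44 CPM (adjusted p = 0.0498), a call that was lost without any 1 of 5 libraries (adjusted p = 0.0706 to 0.165 without DMSO replicate 1 or 2 or any AA library). The most abundant H2B gene, Hist1h2bc, had 121, 148 and 135 CPM in DMSO and 163, 131 and 183 CPM in AA, values that overlapped (log2 fold change 0.23, SE 0.15, adjusted p = 0.278). The other 4 H2B genes described had at most 3.59 CPM and did not pass.

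Of 10 tested H4 genes, 4 were higher in AA and 0 lower, against 22.3% and 8.66% of all genes. Hist2h4 had 4.27, 3.37 and 6.20 CPM in DMSO and 9.996, 12.7 and 9.84 CPM in AA (log2 fold change 1.10, SE 0.25, adjusted p = 0.00802). Hist1h4d had 3.68, 3.47 and 5.14 CPM against 10.97, 12.3 and 6.89 CPM (log2 fold change 1.10, adjusted p = 0.0106, and 0.0539 without AA replicate 2). Both genes had no overlap between the groups, and in both DMSO replicate 3 was the highest control. Hist1h4i had 10.002, 9.99 and 11.8 CPM against 19.6, 30.6 and 14.6 CPM (adjusted p = 0.0205). Its call was lost without DMSO replicate 1, DMSO replicate 2 or AA replicate 2 (0.0557, 0.0532 and 0.0891). Hist4h4, the single member of its cluster on chromosome 6, had 16.4, 14.5 and 16.2 CPM against 23.2, 21.0 and 26.1 CPM (log2 fold change 0.54, SE 0.17, adjusted p = 0.0348). That call was lost whichever library was left out (0.0582 to 0.129). With equalised library medians, quantile normalization or TMM factors, neither Hist1h4i nor Hist4h4 was called. Hist1h4d was not called after quantile normalization (limma adjusted p = 0.0555). Hist1h4c, the H4 gene with the most CPM before scaling for length, had 39.0, 40.9 and 38.3 CPM in DMSO, a narrow range, and 69.2, 54.1 and 32.1 CPM in AA. Its AA replicate 3 lay below every control, and the gene passed only without that library (adjusted p = 0.319 with it and 0.0325 without it). AA replicate 3 was the lowest AA library for 6 of the 10 H4 genes and for 1 of the 4 H1 genes.

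None of 7 tested H3 genes was called, against 22.3% higher and 8.66% lower among all tested genes. Hist2h3c1 and Hist1h3b had the smallest unadjusted limma p of the 7 (0.031 and 0.0438). Hist1h3b reached 1 CPM only in AA libraries and so met the level rule through AA alone. Its p therefore lends no support. Every 31-base stretch of Hist2h3c1 also occurs in another gene. In voom on recovered reads, 1 H3 gene, Hist2h3c1, passed, while 22.3% of all genes were higher and 8.21% lower. Hist2h3c1 had 8.03, 5.04 and 16.9 CPM in DMSO and 14.4, 16.7 and 18.9 CPM in AA. DMSO replicate 3 lay inside the AA range, and the adjusted p was 0.0823 with it and 0.0045 without it. The other 6 H3 genes did not exceed 6.89 CPM in any library.

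Among H2A genes the 1 call in each direction rested on small values or on a copy. Hist1h2ac had 1.09, 0.675 and 1.69 CPM in DMSO and 3.38, 4.88 and 1.72 CPM in AA (log2 fold change 0.97, SE 0.33, adjusted p = 0.0472). DMSO replicate 3 and AA replicate 3 were nearly equal, and the call was lost without DMSO replicate 1 or 2 or AA replicate 1 or 2 (adjusted p = 0.102, 0.138, 0.105 and 0.185). Hist3h2a, with 21.5 to 27.9 CPM in DMSO and 28.3 to 33.7 CPM in AA, did not overlap but did not pass (adjusted p = 0.17). Hist2h2ac and Hist1h2ah did not pass either.

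Hist2h2aa1 was the only member called lower, and its copy Hist2h2aa2 had higher means in AA without passing. Hist2h2aa1 (chr3:96245497-96246082, plus strand) had 13.4, 20.6 and 9.15 CPM in DMSO and 1.503, 5.33 and 6.18 CPM in AA, and the groups did not overlap. The fitted difference was -1.60 on the log2 scale (SE 0.40, limma adjusted p = 0.0123, and 0.0512 without DMSO replicate 2). Hist2h2aa2 (chr3:96239749-96240276, minus strand) had 104, 128 and 137 CPM in DMSO and 157, 141 and 164 CPM in AA, just without overlap (log2 fold change 0.33, adjusted p = 0.101). Every 31-base stretch of the Hist2h2aa2 transcript also occurs in another gene, and 89.6% of those of Hist2h2aa1 occur in Hist2h2aa2. The reads given to Hist2h2aa1 were 11.4%, 13.9% and 6.24% of the pair in DMSO and 0.946%, 3.65% and 3.63% in AA. Summed, the pair had 117, 148 and 147 CPM in DMSO and 159, 146 and 170 CPM in AA. In a fit on summed copies, added after the data were seen, its log2 fold change was 0.21 (SE 0.14, adjusted p = 0.27), and 9 members were higher and 0 lower (22.3% and 8.65% of all genes). How reads were divided between the copies is not given in the sources used here, so the single values of this pair are uncertain.

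**Figure D2:**
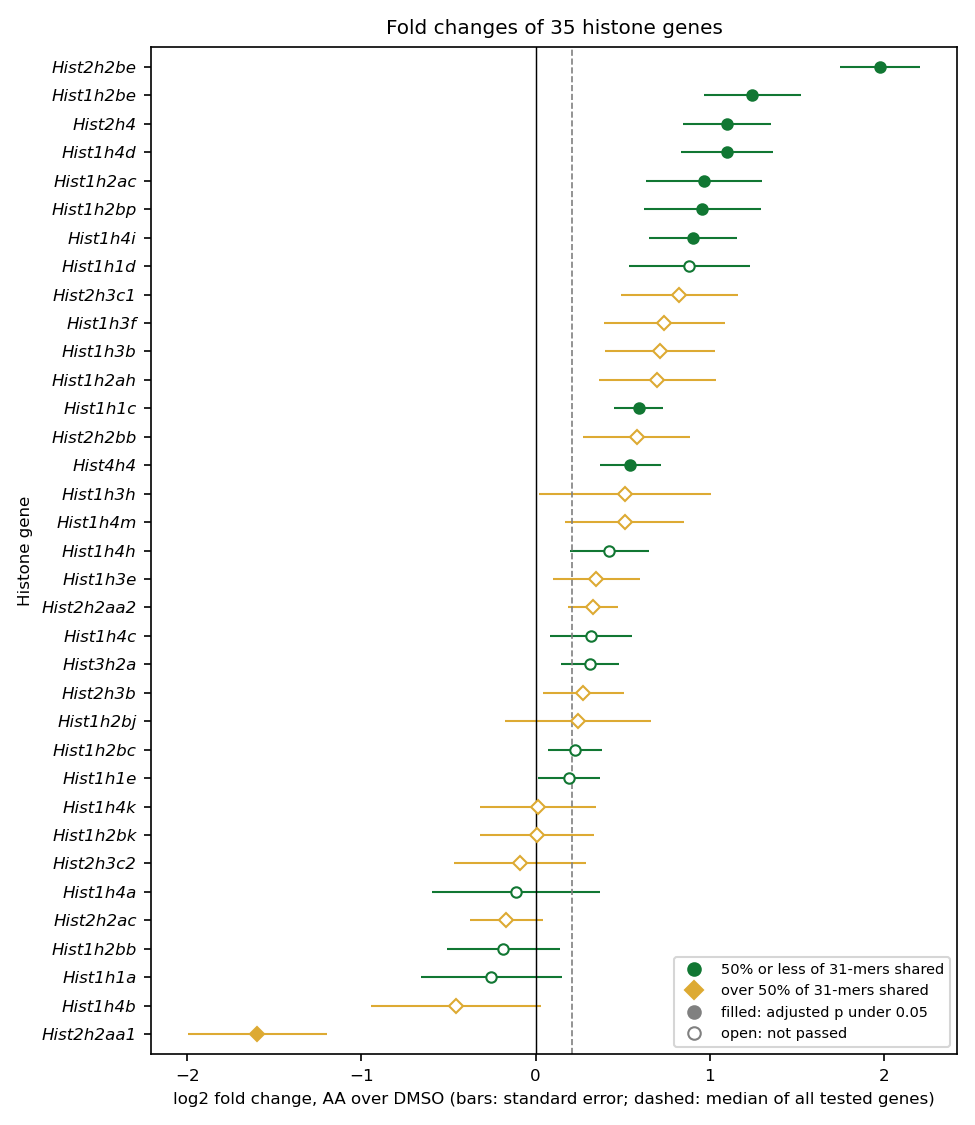
Log2 fold change of AA over DMSO for 35 histone genes, with standard errors as bars, filled symbols for an adjusted p under 0.05, and diamonds for genes that share over 50% of their 31-base stretches with another gene. Hist2h2be is at the top at 1.98, Hist2h2aa1 at the bottom at -1.60, and no diamond is filled to the right of 0.

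Sequence sharing of this kind is common in the family. The median share of 31-base stretches found in another gene was 50% for the 35 described members and 63.0% for the other 35. Of the 18 described members that share 50% or less, 9 were called higher and 0 lower, with a median log2 fold change of 0.57. Of the 17 that share more, 0 were called higher and 1 lower, with a median of 0.33. Over all tested genes 22.3% were higher and 8.66% lower, with a median of 0.21. Summed over libraries, the former went from 480 ± 52.2 to 664 ± 26.4 CPM and the latter from 200.1 ± 27.5 to 233 ± 7.46 CPM (mean ± SD, n = 3). No test was made of this difference. With 50-base stretches the split was 20 and 15 members, with 9 and 0 called higher. With equalised medians, quantile normalization or TMM factors, 4 of the 18 and 0 of the 17 were called higher. Of all genes 11.2%, 12.7% and 12.5% were higher in those fits. Hist2h2aa1, among the 17, stayed lower in each.

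Members called higher were counted by annotated transcript length as well. Of 14 described members with a longest transcript over 1000 bases, 7 were called higher and 0 lower (median log2 fold change 0.78), and of 21 shorter ones 2 were higher and 1 lower (0.32). Where a poly(A) signal stood in the last 40 bases, 7 of 11 were higher and 0 lower (median 0.83), and elsewhere 2 of 24 were higher and 1 lower (0.30). Among the 18 members with little sharing, the counts were 7 of 10 with the signal and 2 of 8 without it. Beside these counts stand 22.3% higher and 8.66% lower among all tested genes, with a median of 0.21. These splits were chosen after values were seen and carry no test. Their counts come from the unscaled fit. With equalised medians or TMM factors, Hist1h1c, Hist1h2bp, Hist1h4i, Hist4h4 and Hist1h2ac lost their calls, all but Hist1h2ac having the signal. After quantile normalization Hist1h2bp, Hist1h4i, Hist4h4, Hist1h2ac and Hist1h4d lost theirs. With the library-set term only Hist2h2be was called. Transcript length and sequence sharing were themselves related across the 35 genes (Spearman rho -0.66). Length and log2 fold change had a rho of 0.47. These genes share libraries and are not independent.

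**Figure D3:**
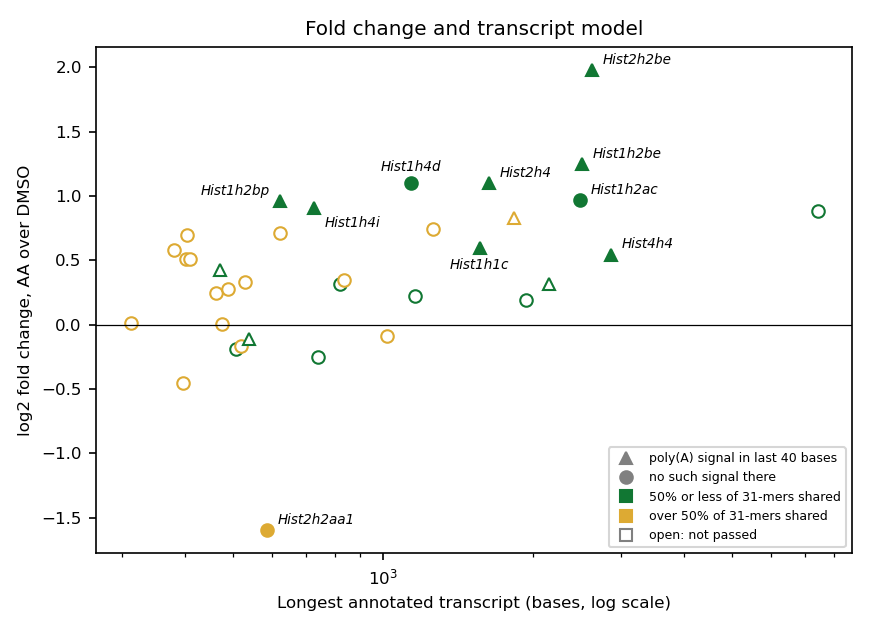
Log2 fold change against the length of the longest annotated transcript on a log axis for 35 histone genes, with triangles for a poly(A) signal near the annotated end, and filled symbols for an adjusted p under 0.05. The filled symbols above 0 are all green (50% or less sharing), and 7 of these 9 are triangles.

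Per kilobase of that transcript, the most abundant member in DMSO was Hist2h2aa2 (233 CPM per kb), followed by Hist1h2bc (117), Hist1h1c (89.7), Hist1h4k (58.7), Hist1h4c (48.1) and Hist1h1e (41.9). Hist2h2be stood at 1.39 CPM per kb. The order therefore depends on the annotated lengths, and Hist2h2aa2 and Hist1h4k also share over 86% of their 31-base stretches.

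By class, summed levels increased in the order H3, H4, H2B, H2A and H1 in DMSO (25.2 ± 8.41, 112 ± 12.05, 150 ± 15.1, 176 ± 20.7 and 224 ± 40.5 CPM, n = 3). In single libraries H2B and H2A overlapped, with 133 to 162 and 153 to 189 CPM, whereas the other neighbours in this order did not. In AA the sums were 36.1 ± 0.804, 158 ± 28.6, 199.9 ± 22.2, 209 ± 6.26 and 307 ± 22.9 CPM. Without scaling, the AA libraries were above all DMSO libraries in each class sum, closely so for H3 (34.8 against 35.3 CPM) and H4 (125 CPM on each side). Divided by the TMM factors (0.863 to 0.968 in DMSO, 1.03 to 1.12 in AA), the groups overlapped in each class sum. These sums carry no test.

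**Figure D4:**
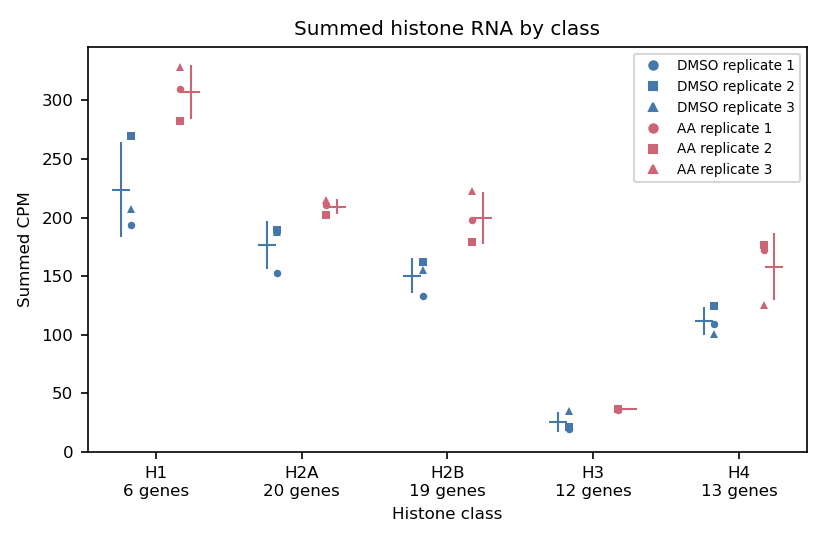
Summed CPM of all members of each histone class in each library, with crosses for the mean and vertical bars for the SD of 3 libraries. H1 has the highest sums and H3 the lowest, and the AA and DMSO points nearly touch for H3 and H4.

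Many H2A and H2B genes lie head to head and share the stretch between their start sites, and 3 such pairs within 1000 bases had both genes described. Hist2h2ac and Hist2h2be are 238 bases apart. Hist2h2ac had 9.04, 10.6 and 8.65 CPM in DMSO and 8.49, 9.04 and 7.32 CPM in AA (log2 fold change -0.17, SE 0.21, adjusted p = 0.569), while Hist2h2be rose as given above. Their difference in log2(CPM + 1), Hist2h2be minus Hist2h2ac, was -1.22, -1.52 and -0.79 in DMSO and 0.69, 0.87 and 1.34 in AA. In CPM not scaled for length, Hist2h2be was thus below Hist2h2ac in every DMSO library and above it in every AA library. Per kilobase of the longest transcript it stayed below, at 1.39 against 18.1 CPM per kb in DMSO and 6.59 against 15.9 in AA. The difference in log2(CPM + 1) was 2.15 higher in AA (exact two-sided permutation p = 0.1, the smallest that 3 against 3 libraries can give, and 0.3 adjusted over 3 pairs). The added 1 makes such differences smaller than log ratios of CPM where a gene is low, as for Hist1h2ac. For Hist1h2bc minus Hist1h2ac, 250 bases apart, the value on this scale was 6.00 ± 0.42 in DMSO and 5.26 ± 0.79 in AA (AA minus DMSO -0.74, exact permutation p = 0.3, adjusted 0.3). For Hist1h2bk minus Hist1h2ah, 301 bases apart, it was 0.22 ± 0.41 and -0.47 ± 0.30 (AA minus DMSO -0.69, exact permutation p = 0.2, adjusted 0.3).

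**Figure D5:**
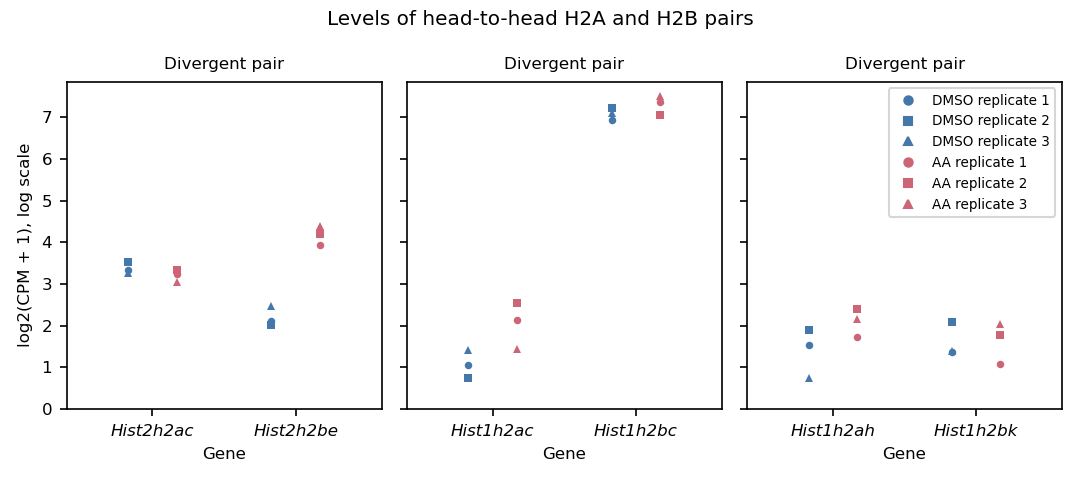
Level of each gene of 3 head-to-head pairs in each library, as log2(CPM + 1). In these levels, not scaled for length, Hist2h2be lies below Hist2h2ac in DMSO and above it in AA, while Hist1h2bc lies far above Hist1h2ac in both groups.

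The stretch between the genes is shown for 2 of these pairs, as the RefSeq promoter windows of Hist2h2ac (chr3:96220831-96221130, GRCm38.p6, minus strand) and Hist1h2ac (chr13:23683910-23684209, minus strand). Capitals mark the CCAAT box, the TATA box (TATAAA) and the octamer of histone promoters, read on either strand, and no marked stretch overlaps another.
Hist2h2ac to Hist2h2be: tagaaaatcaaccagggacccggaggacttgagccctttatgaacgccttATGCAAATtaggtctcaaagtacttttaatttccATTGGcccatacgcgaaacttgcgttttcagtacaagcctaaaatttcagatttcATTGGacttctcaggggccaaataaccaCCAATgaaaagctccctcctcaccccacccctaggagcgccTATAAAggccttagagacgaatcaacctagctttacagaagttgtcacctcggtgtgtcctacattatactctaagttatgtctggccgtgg
Hist1h2ac to Hist1h2bc: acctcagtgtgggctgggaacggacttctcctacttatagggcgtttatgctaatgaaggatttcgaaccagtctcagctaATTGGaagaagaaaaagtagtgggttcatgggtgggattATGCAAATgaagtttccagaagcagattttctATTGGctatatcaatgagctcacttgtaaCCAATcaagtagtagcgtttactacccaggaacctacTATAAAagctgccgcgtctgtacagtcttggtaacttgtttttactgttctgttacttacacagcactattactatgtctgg

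Each window holds 3 CCAAT boxes, 1 TATA box and 1 octamer, so the numbers of these motifs were equal in both windows. Over the 62 members matched to a promoter of 300 bases, on both strands, CCAAT was present in 85.5% (37.4% of all 32851 promoters in the table), TATAAA in 56.5% (13.6%) and the octamer in 21.0% (1.74%). All 18 H2A and all 16 H2B promoters held CCAAT, against 3 of 12 H4 promoters. The octamer was found in 7 H2A and 6 H2B promoters and in none of the 28 others. A match is a run of letters and not a shown binding site.

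The 35 members below the level rule summed to 6.32, 9.38 and 5.70 CPM in DMSO and 15.1, 15.4 and 10.9 CPM in AA. Of all 70 members, 5 had 0 reads in every library, which allows up to 0.0964 to 0.225 CPM (3 reads) per library, for counting error only. The 5 highest of those below the rule were Hist1h3a, Hist1h2bg, Hist1h2aa, Hist2h2ab and Hist1h4j, with means of 0.669 to 1.03 CPM. Just inside the rule lay Hist1h3h with a mean of 0.903 CPM and 1 CPM or more in 3 libraries, and just outside it Hist1h3a with 1.03 CPM and that level in 2. Of the H2A genes 14 of 20 were below it, of the H2B genes 11 of 19, and of the H4 genes 3 of 13.

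Most histone genes outside the clusters make tailed RNA. Of 11 tested, 5 were higher in AA and 0 lower, with a median log2 fold change of 0.64. Among all tested genes the shares were 22.3% and 8.66%, and the median was 0.21. H2afz, a variant placed at promoters, went from 35.6 ± 1.08 to 69.2 ± 4.66 CPM (n = 3, log2 fold change 0.94, adjusted p = 0.000698), with no overlap. H2afx, whose product is phosphorylated around DNA breaks, went from 5.72 ± 0.528 to 13.4 ± 1.49 CPM, and H2afj from 30.7 ± 8.69 to 63.4 ± 9.96 CPM. H3f3c went from 10.2 ± 7.27 to 47.1 ± 3.76 CPM, with DMSO replicate 2 at 2.51 CPM. With the library-set term, H2afx and H3f3c no longer passed (adjusted p = 0.0565 and 0.0803).

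Of 29 tested genes of histone mRNA processing and turnover, 9 were higher and 0 lower. Slbp, the gene of the stem-loop-binding protein, went from 18.8, 14.4 and 23.4 CPM to 31.6, 36.7 and 38.6 CPM (log2 fold change 0.90, SE 0.20, adjusted p = 0.00636). All AA libraries were above the controls, but the call was lost when library sets were fitted (adjusted p = 0.172). Hinfp, a transcription factor of H4 genes, went from 5.26 ± 0.978 to 17.7 ± 5.42 CPM (log2 fold change 1.55, adjusted p = 0.00135), Cdk9 from 29.4 ± 4.197 to 53.1 ± 6.36 CPM and Ncbp2, a cap-binding subunit, from 21.8 ± 0.509 to 37.0 ± 4.27 CPM. Among 26 histone chaperone and assembly genes 10 were higher, among them Npm1, Ipo4 and Supt16 (log2 fold changes 0.97, 0.80 and 0.66), and 2 were lower, Mms22l (-1.23) and Chaf1a (-0.95), the last named after its value was seen. Among 32 DNA replication genes 7 were higher, led by Pcna, Cdt1, Mcm7 and Orc6 (1.51, 1.45, 1.34 and 1.13), and 1 was lower, Pole (-1.03), the catalytic subunit of DNA polymerase epsilon, also named after its value was seen. The median of this list was 0.09. These shares can be read against the 22.3% and 8.66% of all genes. When library sets were fitted, Cdk9, Ncbp2, Npm1, Supt16, Mms22l and Orc6 also lost their calls (adjusted p = 0.0713, 0.0664, 0.0526, 0.0528, 0.146 and 0.136). Chaf1a and Pole lost theirs too, as no gene of the related lists was called lower in that fit.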

How the data were processed

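The deposited table holds log10(CPM + 1) values, the authors' logged CPM: undoing the logarithm gives columns on one common total. Per the submitters' processing notes, bcl2fastq 2.19 and kallisto (no version or role) were used with build mm10. The annotation, strand setting and summing of transcripts to genes: not given in the sources used here. Whole reads were recovered for 100% of values within 0.1 read, although kallisto estimates need not be whole.

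CPM was logged again as log2(CPM + 1). The design had foreseen logged CPM without a stated base. Genes with 1 CPM or more in at least 3 libraries (14311) were fitted with limma 3.58.1 (R 4.3.3, variance trend), AA against DMSO, two-sided, with Benjamini-Hochberg adjustment. SE is the moderated standard error. The script was tested on simulated data. Sequence sharing, stem-loops and poly(A) signals came from GENCODE M21 transcripts, matched for 70 of 70 members, and promoters from RefSeq. The members and lists were chosen with earlier results of these data known. Named genes were all members at that level, the 5 highest others, and up to 4 per related list by adjusted p. A planned list of untailed RNA had 0 of 10 symbols in the table and is not used here. Replicate numbers did not pair samples (see the closing section). Alternatives were other scalings, filters, pseudocounts, a robust variance prior, voom, a replicate block, a term for library sets and leaving out each library.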

Additional observations from a re-analysis of the deposited data

How the results depend on the processing

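Hist2h2be was called under all 18 alternatives, Hist1h2be and Hist2h4 under 17 and Hist1h1c and Hist1h4d under 15. The count of histone genes higher in AA was 9, and 4 with library medians equalised, 4 after quantile normalization, 4 with TMM factors and 1, Hist2h2be, with a term setting DMSO replicates 1 and 2 apart, a fit that rests on DMSO replicate 3 as the control. Over all genes, those settings called 11.2%, 12.7%, 12.5% and 7.39% higher. Leaving out 1 library gave 4 to 9 higher and 0 to 1 lower, while 12.9% to 19.8% of all genes were higher; the lower gene was lost with no filter (0), the library-set term (0), summed copies (0, added after seeing the data) and without DMSO replicate 2.

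The same-numbered libraries did not pair (correlations of deviations -0.11, -0.16 and -0.02), and the replicate block gave 7 higher and 1 lower, against 19.3% and 7.30% of all genes. Without AA replicate 2, 4 histone genes were higher, without DMSO replicate 1 or 2, 5.

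For genes of the related lists, 31 were higher and 3 lower, where all genes had 22.3% and 8.66%. The counts were 16 and 9 with equalised medians (all genes 11.2% and 16.9%) and 18 and 10 after quantile normalization (12.7% and 14.5%). TMM factors gave 17 and 9 (12.5% and 15.7%), and fitting library sets gave 7 and 0 (7.39% and 2.96%). A robust variance prior gave 5 lower (8.81%). Without 1 library, 20 to 30 were higher and 1 to 4 lower (12.9% to 19.8% and 5.61% to 7.97%). Under each scaling, and when library sets were fitted, these counts moved in the same directions as the shares of all genes.

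The median log2 fold change of 0.42 was 0.165 with equalised medians, 0.18 after quantile normalization, 0.20 with TMM factors, 0.31 with no filter, 0.32 with a filter of 4 CPM, 0.53 and 0.24 with pseudocounts of 0.1 and 5, 0.57 in voom and 0.35 to 0.47 without 1 library. Equalising medians lowers every gene by the same amount. The histone median therefore stayed 0.22 above the median of all tested genes there. For the other settings the medians of all genes are not given here. The summed ratio was 1.13 with TMM factors and 1.25 to 1.41 without 1 library.

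Signs turned only for members that were not called. With equalised medians Hist1h1e was -0.069, Hist1h2bc -0.033, Hist1h2bj -0.017, Hist1h2bk -0.25 and Hist1h4k -0.25. After quantile normalization Hist1h2bj was -0.071, Hist1h2bk -0.33, Hist1h4k -0.26 and Hist2h3b -0.073. With TMM factors Hist1h1e was -0.048, Hist1h2bc -0.014, Hist1h2bk -0.15 and Hist1h4k -0.21. A pseudocount of 0.1 gave Hist1h2bj -0.15 and Hist1h2bk -0.0016, voom gave Hist1h2bj -0.37, Hist1h2bk -0.052 and Hist1h4k -0.032, and the library-set term gave Hist1h3h -0.46, Hist1h4a 0.87, Hist1h4b 0.46 and Hist2h3c1 -0.024. Without 1 library the ranges were -0.76 to 0.025 for Hist1h1a, -0.50 to 0.064 for Hist1h2bb, -0.12 to 0.77 for Hist1h2bj, -0.19 to 0.28 for Hist1h2bk, -0.61 to 0.30 for Hist1h4a, -0.19 to 0.38 for Hist1h4k and -0.52 to 0.15 for Hist2h3c2. The cause of these changes was not tested.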
